A study of Mus musculus with 7 samples.

Results

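The genes described here are 7 members of the mouse Ms4a family, Ms4a7, Ms4a4c, Ms4a6b, Ms4a6c, Ms4a6d, Ms4a1 and Ms4a4b, followed across the monocytes, macrophages and lymphocytes of infarcted hearts. They were taken by symbol from the gene rows of all 7 matrices, and are 7 of 19 annotated genes whose symbol begins with Ms4a and 7 of 27514 genes that both annotations used hold. They were chosen by their measured levels across these cells and days, which were already known. Their levels by cell class, state and day are therefore a description, and nothing is read from a test of them. The measures that the choice did not use are the surface antibody counts and the sequences.

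Leukocytes were profiled by droplet single-cell RNA sequencing in C57BL6/J mice before and after myocardial infarction, in 3 experiments. In the first, CD45+ leukocytes of male mice, negative for a CD45.2 antibody injected into the circulation shortly before death, were sorted from hearts without infarct (steady state, 5 mice pooled) and from hearts 1, 3, 5 and 7 days after infarction (5, 5, 5 and 3 mice pooled), 1 library each, with part of the neutrophils removed on sorting. In the second, CD11b+ cells of male hearts on days 1, 3 and 5 (5, 5 and 3 mice), also negative for the injected antibody, were marked by a hashtag per day, stained with 10 barcoded surface antibodies and run as 1 library (the heart pool). In the third, Ter119-B220-NK1.1-CD11b+ cells of blood and ischemic heart from mice aged 8 to 10 weeks with no surgery, sham surgery or infarction by permanent coronary ligation carried hashtags 1 to 7 in 1 library, with neutrophils and other cells brought to near equal numbers. What each of those hashtags stands for is not in the labels used here, so this blood and heart pool is described as a whole. The first experiment used 3′ chemistry v2 and the heart pool v3, and mice of a time point were pooled, so a time point is 1 sample in each experiment.

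MS4A proteins are small proteins that cross the membrane 4 times and sit at the cell surface or in intracellular membranes. Ms4a1 encodes CD20, the surface protein of B cells that therapeutic antibodies bind. Ms4a4b is known from T cells, where its product associates with the costimulatory receptor GITR. Ms4a7 is used as a marker of macrophages, Ms4a4c and the Ms4a6 genes are transcribed in monocytes and other myeloid cells, and several family members lie side by side as recent duplicates.

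All 19 Ms4a genes lie on chromosome 19 between 10962293 and 11640851 (GRCm38, GENCODE coordinates). Ms4a1 (11249675 to 11266241) and Ms4a7 (11321039 to 11336146) are on the minus strand. The next members to the right, Ms4a4c (11404770 to 11427246), Ms4a4b (11443553 to 11467055), Ms4a6c (11469366 to 11482192) and Ms4a6b (11516512 to 11531256), are on the plus strand, and Ms4a6d (11586604 to 11604849) is again on the minus strand. Ms4a4c and Ms4a4b are neighbours with promoters much alike, and so are Ms4a6c and Ms4a6b in promoter sequence, so these 4 promoters are shown. RefSeq promoter windows (250 bases before to 50 after a start, GRCm38.p6) were found for 5 of the 7 members, not for Ms4a1 and Ms4a6d. The 250 bases before each start are printed, all on the plus strand of chromosome 19, with runs of 12 or more bases that the partner's window also holds in capitals.
Ms4a4c, chr19:11407411-11407660: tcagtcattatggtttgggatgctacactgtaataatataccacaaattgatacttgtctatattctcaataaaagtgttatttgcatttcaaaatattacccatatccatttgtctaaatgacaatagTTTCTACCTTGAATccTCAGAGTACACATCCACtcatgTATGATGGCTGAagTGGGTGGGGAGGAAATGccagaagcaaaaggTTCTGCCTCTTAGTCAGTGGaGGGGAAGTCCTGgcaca
Ms4a4b, chr19:11443308-11443557: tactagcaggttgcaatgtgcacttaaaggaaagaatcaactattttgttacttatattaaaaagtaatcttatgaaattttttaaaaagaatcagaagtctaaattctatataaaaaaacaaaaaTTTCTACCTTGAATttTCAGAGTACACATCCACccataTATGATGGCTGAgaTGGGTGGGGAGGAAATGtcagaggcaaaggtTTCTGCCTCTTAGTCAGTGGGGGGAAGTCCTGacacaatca
Ms4a6c, chr19:11469118-11469367: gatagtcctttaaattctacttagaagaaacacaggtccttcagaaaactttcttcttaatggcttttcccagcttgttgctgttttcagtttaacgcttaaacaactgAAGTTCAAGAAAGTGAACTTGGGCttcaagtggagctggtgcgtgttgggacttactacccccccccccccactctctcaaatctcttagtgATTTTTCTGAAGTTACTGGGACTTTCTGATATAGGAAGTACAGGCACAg
Ms4a6b, chr19:11518309-11518558: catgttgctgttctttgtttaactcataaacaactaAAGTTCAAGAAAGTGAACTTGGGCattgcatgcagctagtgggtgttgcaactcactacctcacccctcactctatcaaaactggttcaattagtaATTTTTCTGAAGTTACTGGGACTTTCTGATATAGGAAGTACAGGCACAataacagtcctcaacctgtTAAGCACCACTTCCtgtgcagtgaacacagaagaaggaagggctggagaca
The windows of Ms4a4c and Ms4a4b shared 131 bases in such runs and were identical at 229 of 271 aligned bases (84.5%). Those of Ms4a6c and Ms4a6b were identical at 193 of 216 aligned bases (89.4%) and shared an unbroken run of 48 bases, which begins 49 bases before the start of Ms4a6c and 118 bases before that of Ms4a6b. Between windows of other members, those of Ms4a7 included, the longest shared run was 9 bases. None of these windows held the core letters of a PU.1 site (GAGGAAG), an interferon response element (GAAA, any 2 bases, GAAA) or an Ebf1 site (TCCC, any 2 bases, GGGA) on either strand. Over 32851 RefSeq promoter windows of the same length the shares with a match were 13.6%, 3.44% and 0.904%.

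The likeness within these pairs reaches the transcripts, which matters for counting. Of 461 windows of 40 bases in the last 500 bases of Ms4a4c transcripts, 73 were also in Ms4a4b transcripts, and 57 of 461 in Ms4a6c were also in Ms4a6b. In the last 500 bases of the other members no window was shared with a second member. Reads that fall in the shared stretches could have been discarded or split between partners, so levels of Ms4a4c against Ms4a4b and of Ms4a6c against Ms4a6b are uncertain to that extent.

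After filtering, 639 cells of the steady state library and 522, 846, 945 and 1793 cells of the day 1, 3, 5 and 7 libraries were used, with 4263 heart pool cells and 9999 cells of the third experiment. Median UMI counts per cell ran from 3594 to 9464 (CD45+ libraries), 18232 (heart pool) and 4282 (blood and heart pool). At most 2 cell barcodes were shared by a pair of CD45+ libraries, and 28 by the pools. Cells were clustered without any Ms4a gene and classes were named from marker lists without them. Levels are UMIs per 1000000 UMIs of a class's sum (CPM), with exact Poisson 95% intervals that cover counting error only. Bulk sums cannot tell fewer cells with a transcript from less transcript per cell.

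Ms4a7 was the member whose level in monocytes/macrophages differed most between days. In the CD45+ libraries it stood at 420 CPM at steady state (524 cells), 15.4 CPM on day 1 (246 cells), 534 CPM on day 3 (620 cells), 1814 CPM on day 5 (717 cells) and 1648 CPM on day 7 (564 cells). In the heart pool it stood at 71.9 CPM on day 1 (224 cells), 505 CPM on day 3 (1067 cells) and 1185 CPM on day 5 (1303 cells). Day 1 was lowest and day 5 highest in both experiments, and no 2 days of an experiment had overlapping intervals. The day 1 level of the CD45+ library, 36 UMIs in all (interval 10.8 to 21.3 CPM), was below that of the heart pool (65.0 to 79.5 CPM). After each cell was thinned to 1500 UMIs, the share of monocytes/macrophages with an Ms4a7 UMI was 44.1%, 2.85%, 32.1%, 67.4% and 69.1% in the steady state, day 1, 3, 5 and 7 libraries, and 7.62%, 36.8% and 68.2% on days 1, 3 and 5 of the heart pool. The thinned share in neutrophils, read as background, was 0.463%, 8.15% and 7.50% on days 1, 3 and 5 of the CD45+ libraries, and between 3.51% and 6.94% in the heart pool. The day 1 share of the heart pool was close to the neutrophils' 5.86% in the same library.

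**Figure D1:**
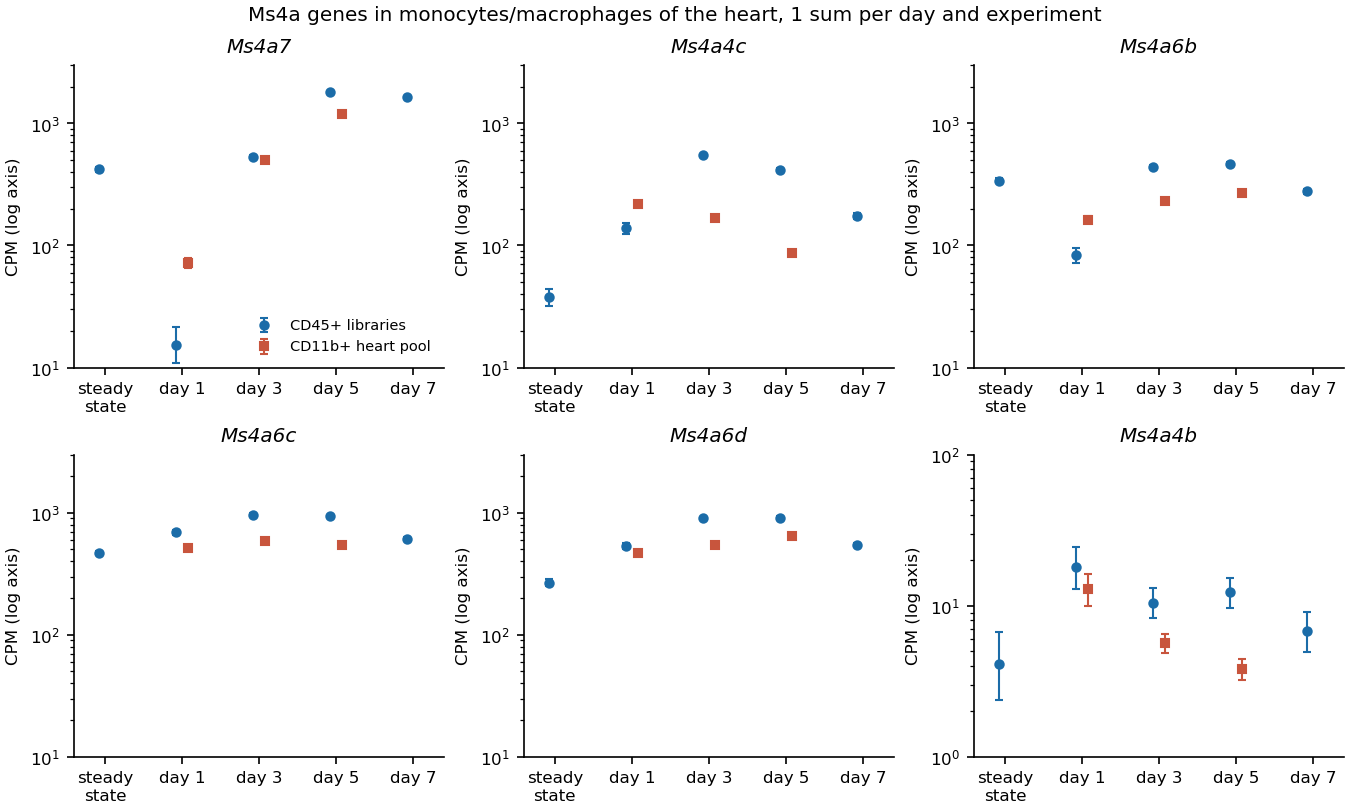
Levels in CPM (log axis) of 6 Ms4a genes in monocytes/macrophages by day, with circles for the CD45+ libraries, squares for the heart pool and exact Poisson 95% intervals as bars. Ms4a7 is lowest on day 1 (15.4 and 71.9 CPM) and highest on day 5 (1814 and 1185 CPM), while Ms4a4c goes up from day 1 to day 3 in the CD45+ libraries and down in the heart pool.

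Ms4a4c was lowest in the steady state heart and took a different course in the 2 heart experiments. In the CD45+ libraries it stood at 37.8 CPM at steady state, 138 CPM on day 1, 548 CPM on day 3, 418 CPM on day 5 and 175 CPM on day 7. In the heart pool it stood at 217 CPM on day 1, 169 CPM on day 3 and 87.0 CPM on day 5. Day 3 was thus the highest day of the first experiment and day 1 that of the second. All intervals within an experiment were apart, and both experiments were lower on day 5 than on day 3.

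The Ms4a6 genes were present at every time, and spanned a narrower range than Ms4a7. Over all monocytes/macrophages Ms4a6c was the most abundant of them in the CD45+ libraries (774 CPM, against 691 CPM of Ms4a6d) and Ms4a6d in the heart pool (591 CPM, against 559.6 CPM of Ms4a6c). Ms4a6c stood at 468 CPM at steady state and 691, 967, 933 and 614 CPM on days 1, 3, 5 and 7, and at 510, 588 and 542 CPM on days 1, 3 and 5 of the heart pool. Days 3 and 5 of the CD45+ libraries had overlapping intervals (944 to 990 and 909 to 957 CPM). Ms4a6d stood at 268 CPM at steady state and 534, 903, 911 and 547 CPM on days 1, 3, 5 and 7, and at 464, 545 and 647 CPM in the heart pool. Its days 3 and 5 and its days 1 and 7 overlapped in the CD45+ libraries. Ms4a6b stood at 341 CPM at steady state and 83.5, 441, 463 and 277 CPM on days 1, 3, 5 and 7, and at 163, 232 and 272 CPM in the heart pool. Day 1 was its lowest day in both experiments, as for Ms4a7, and its days 3 and 5 overlapped in the CD45+ libraries.

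Ms4a4b and Ms4a1, the lymphocyte members, were low in monocytes/macrophages of the heart. Ms4a4b lay between 4.14 CPM (steady state, 16 UMIs) and 18.0 CPM (day 1, 42 UMIs) in the CD45+ libraries and between 3.78 and 12.8 CPM in the heart pool. Ms4a1 had no UMI on days 1 and 3 of the CD45+ libraries, which allows up to 1.28 and 0.425 CPM at 3 counts, and 17.8 CPM (113 UMIs) on day 7. The day 7 library was the one with most B cells, 963 of 1793 cells.

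**Figure D2:**
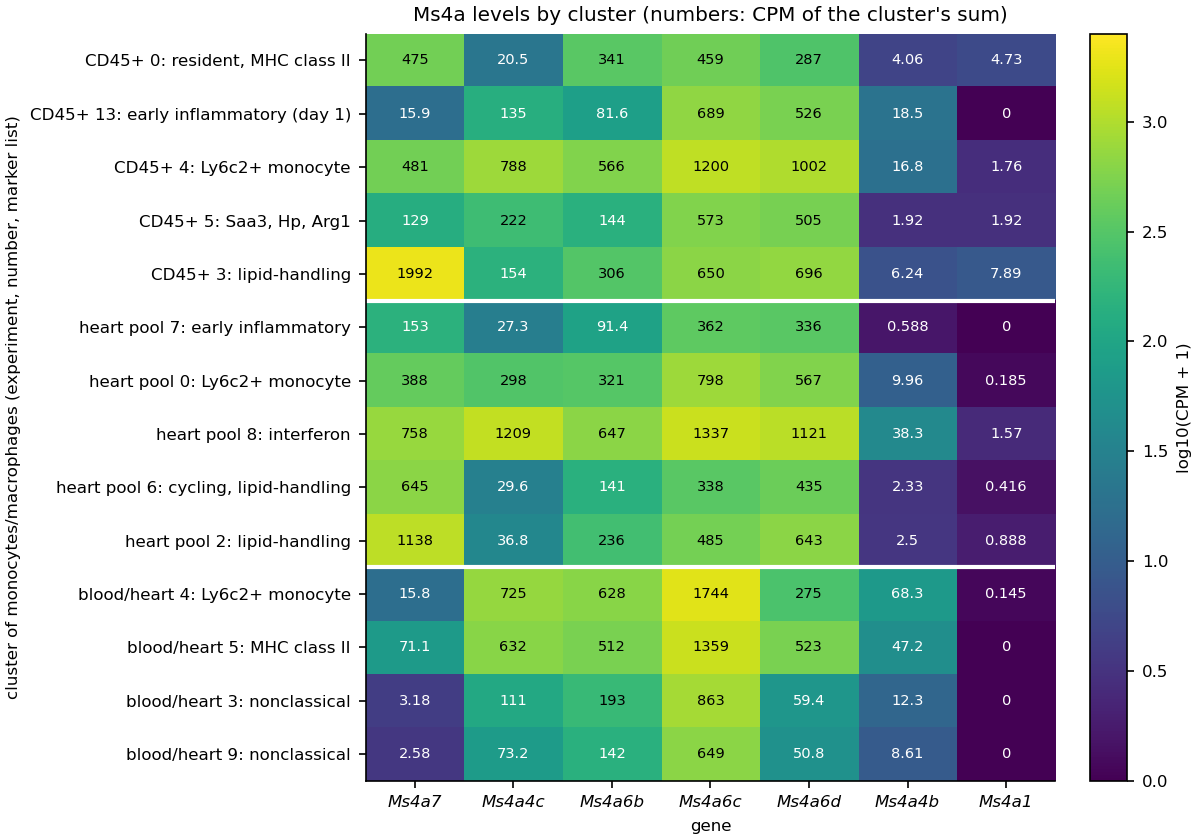
Levels in CPM of 7 Ms4a genes in the clusters of monocytes/macrophages, coloured by log10(CPM + 1), with the 3 experiments separated by white lines. Ms4a7 is highest in the lipid-handling clusters (1992 and 1138 CPM) and Ms4a4c in the interferon and Ly6c2+ monocyte clusters (1209, 788 and 725 CPM).

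Within the class, the members were spread over different states, and those states differ in share between days. Lipid-handling macrophages, the state named from genes such as Trem2, Gpnmb and Spp1, had the highest Ms4a7 level of the clusters in the class in both heart experiments. They held 1992 CPM in the CD45+ libraries (974 cells) and 1138 CPM in the heart pool (1262 cells). The Ly6c2+ clusters, both mixed as described below, held 481 CPM (764 cells) and 388 CPM (911 cells). The resident-type cluster held 7 resident and 6 MHC class II markers, and 506 of its 597 cells were from the steady state library. Its Ms4a7 level was 475 CPM. The early inflammatory cluster of the CD45+ libraries, 234 of 235 cells from day 1, held 15.9 CPM. Since the day 1 library supplied nearly all of that cluster, it may be that library and not a type. Ms4a4c ran the other way, with 154 and 36.8 CPM in the lipid-handling clusters, 788 and 298 CPM in the Ly6c2+ clusters and 20.5 CPM in the resident-type cluster. Its highest level of any cluster was 1209 CPM in 64 cells of the heart pool marked by interferon genes. That cluster held 5 Ly6c2+ monocyte markers beside its 10 interferon markers. Clusters were made from the same cells, so these contrasts are a description. In the CD45+ libraries a cluster of 178 cells with 6 cycling markers and stromal genes such as Dcn had no name and stayed outside the class. At resolution 1.0 a monocyte/macrophage cluster of 160 cells there held 6 lipid-handling and 6 cycling markers. The heart pool kept its 218 cycling cells in the class. Class levels, shares and the fit of days below thus rest on unlike sets of cells in the 2 experiments.

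The shares of these states ran alongside the days. Lipid-handling cells were 3.24% of monocytes/macrophages at steady state and 0 of 246 on day 1 (which allows up to 1.22%). Their share was 14.5%, 64.4% and 71.8% on days 3, 5 and 7 of the CD45+ libraries. The early inflammatory cluster was 95.1% on day 1. The 17 steady state cells in the lipid-handling cluster held 140 CPM of Ms4a7 and 431 CPM of Ms4a4c, unlike those of later days. In the heart pool 71.0% of day 1 cells fell in the Ly6c2+ cluster. The day 1 samples of the 2 experiments thus held different states under one class name.

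Ms4a7 also differed between days among the cells of one cluster. In the Ly6c2+ cluster of the heart pool it stood at 50.8 CPM on day 1 (159 cells), 281 CPM on day 3 (458 cells) and 763 CPM on day 5 (294 cells). That cluster was mixed, with 5 markers of Ly6c2+ monocytes and 5 of the MHC class II state, and resolution 1.0 divided it. Most of its cells then fell in 2 clusters with Ly6c2+ and no MHC class II markers. Ms4a7 stood at 41.2, 279 and 417 CPM on days 1, 3 and 5 in the larger (117, 240 and 84 cells) and at 74.4, 379.5 and 1022 CPM in the smaller (15, 92 and 69 cells). Those that fell in the MHC class II cluster held 317 and 923 CPM on days 3 and 5 (42 and 105 cells), and those in the nonclassical cluster 38.4, 71.1 and 45.3 CPM (12, 76 and 23 cells), with overlapping intervals on the 3 days. In the lipid-handling cluster it stood at 719 CPM on day 3 (428 cells) and 1397 CPM on day 5 (825 cells), and in the cycling cluster at 404 and 844 CPM on those days. In the CD45+ libraries the lipid-handling cluster held 1078 CPM on day 3 (90 cells), 2318 CPM on day 5 (462 cells) and 1980 CPM on day 7 (405 cells). The Ly6c2+ cluster of those libraries moved less as a whole, with 470, 558 and 436 CPM on the same days. It too held markers of another state, 6 of Ly6c2+ monocytes and 5 of the early inflammatory state, and was mixed. At resolution 1.0 its largest part, with 7 Ly6c2+ and 4 early inflammatory markers, held 163, 276 and 264 CPM (301, 142 and 61 cells). The intervals of that part were apart on days 3 and 5 and overlapped on days 5 and 7. Those of its cells that fell in a lipid-handling cluster held 1041 and 1362 CPM on days 3 and 5 (97 and 31 cells). Ms4a4c in the Ly6c2+ cluster of the heart pool stood at 246, 331 and 269 CPM on days 1, 3 and 5, so within that cluster day 3 was highest. In the larger of the 2 Ly6c2+ parts of that cluster Ms4a4c stood at 186, 384 and 390 CPM, with overlapping intervals on days 3 and 5. In the smaller it stood at 392, 168 and 165 CPM. The Ly6c2+ cluster of the CD45+ libraries held 700, 1113 and 746 CPM of Ms4a4c on days 3, 5 and 7, and its largest part 750, 1047 and 798 CPM.

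The Ms4a6 genes were higher in Ly6c2+ monocytes than in lipid-handling cells, by less than Ms4a4c. Ms4a6c stood at 1200 against 650 CPM in the CD45+ libraries and 798 against 485 CPM in the heart pool. Ms4a6b stood at 566 against 306 and at 321 against 236 CPM, and Ms4a6d at 1002 against 696 and at 567 against 643 CPM. Ms4a6d was thus the member of the 3 without a common order in the 2 experiments. The lowest Ms4a6b levels were in the early inflammatory clusters, at 81.6 and 91.4 CPM.

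The blood and heart pool added monocytes of blood, mixed with cells of heart from which the labels used here do not separate them. In this mixture classical, Ly6c2+ cells and nonclassical, patrolling cells can be set side by side. Over the whole pool Ly6c2+ cells (1955 cells) held 1744 CPM of Ms4a6c, 725 CPM of Ms4a4c, 628 CPM of Ms4a6b, 275 CPM of Ms4a6d, 68.3 CPM of Ms4a4b and 15.8 CPM of Ms4a7. The larger nonclassical cluster (829 cells) held 863 CPM of Ms4a6c, 111 CPM of Ms4a4c, 193 CPM of Ms4a6b, 59.4 CPM of Ms4a6d, 12.3 CPM of Ms4a4b and 3.18 CPM of Ms4a7. All 6 were lower in the nonclassical cells. Ms4a6c differed least in proportion, and remained the most abundant member in both.

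Among lymphocytes, B cells held Ms4a1, and T and NK cells held Ms4a4b. In the day 7 CD45+ library, Ms4a1 stood at 650 CPM in B cells (963 cells), against 26.4 CPM in T cells (95 cells), 24.5 CPM in NK cells (41 cells) and 17.8 CPM in monocytes/macrophages. Thinned to 1500 UMIs, 57.0% of B cells had an Ms4a1 UMI, against 4.21% of T cells, 7.32% of NK cells, 3.01% of monocytes/macrophages and 10.3% of 29 neutrophils. Those last shares are read as background. Unthinned, the B cell share was 78.4% at a median of 2756 UMIs. Smaller B cell groups of 10 to 28 cells in the steady state, day 1 and day 5 libraries held 228 to 890 CPM.

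On day 7 Ms4a4b stood at 1025 CPM in NK cells and 725 CPM in T cells, against 13.4 CPM in B cells and 6.77 CPM in monocytes/macrophages. NK cells of the steady state and day 5 libraries (27 and 18 cells) held 882 and 1315 CPM, and T cells of the steady state, day 1 and day 5 libraries (13 to 16 cells each) between 440 and 2337 CPM. Over all CD45+ libraries, T cells with Cd8a or Cd8b1 UMIs and none of Cd4 (37 cells) held 1399 CPM (interval 1243 to 1568) and those with Cd4 only (26 cells) 917 CPM (745 to 1118). The 77 T cells with neither held 554 CPM (472 to 647) and 4 cells with Foxp3 UMIs, counted whatever their Cd4 and Cd8, 3279 CPM (2426 to 4335, 49 UMIs). These sums pool libraries that differ in their T cell level. Its paralog Ms4a4c, with the similar promoter shown above, stood at 36.0 CPM in T cells and 14.7 CPM in NK cells of day 7. Ms4a6b was shared by T cells and monocytes/macrophages, at 343 and 277 CPM on day 7, against 113 CPM in NK cells and 30.1 CPM in B cells. Of T cells, 37.9% had a thinned Ms4a6b UMI, against 3.95% of B cells. Its paralog Ms4a6c was low in all 3 lymphocyte classes, between 52.8 and 63.8 CPM.

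Ms4a4c was also detected outside the monocyte and macrophage class. Dendritic cells of the CD45+ libraries (21 to 58 cells) held 88.5 CPM at steady state and 442, 418, 293 and 176 CPM on days 1, 3, 5 and 7, and their Ms4a6c lay between 218 and 672 CPM. B cells of day 7 held 143 CPM (interval 130 to 157), near the 175 CPM of monocytes/macrophages. After thinning, 18.6% of B cells had an Ms4a4c UMI, against 3.16% of T cells and 0 of 41 NK cells (which allows up to 7.32%). Ms4a7 differed from this. Its thinned share on day 7 was 18.8% in B cells, 17.9% in T cells, 14.6% in NK cells and 13.8% in neutrophils, with overlapping intervals, and these shares are read as background. The summed level was not alike in these classes. Ms4a7 stood at 461 CPM in NK cells (interval 373 to 564, with a UMI in 15 of 41 cells before thinning), against 139 CPM in B cells and 113 CPM in T cells, and the source of the NK cells' UMIs was not tested.

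The family had little transcript in neutrophils. In the blood and heart pool, neutrophils of hashtags 1 to 7 (404 to 1137 cells each) held at most 22.5 CPM of Ms4a6c, 10.3 CPM of Ms4a4c and 0.541 CPM of Ms4a7. The member with the highest level there was Ms4a6d under hashtag 7, at 50.5 CPM, against 3.72 to 7.86 CPM under the other 6. In neutrophils of infarcted hearts Ms4a6d stood at 17.3, 68.5, 153 and 99.6 CPM on days 1, 3, 5 and 7 of the CD45+ libraries and 25.4, 91.6 and 72.5 CPM on days 1, 3 and 5 of the heart pool.

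**Figure D3:**
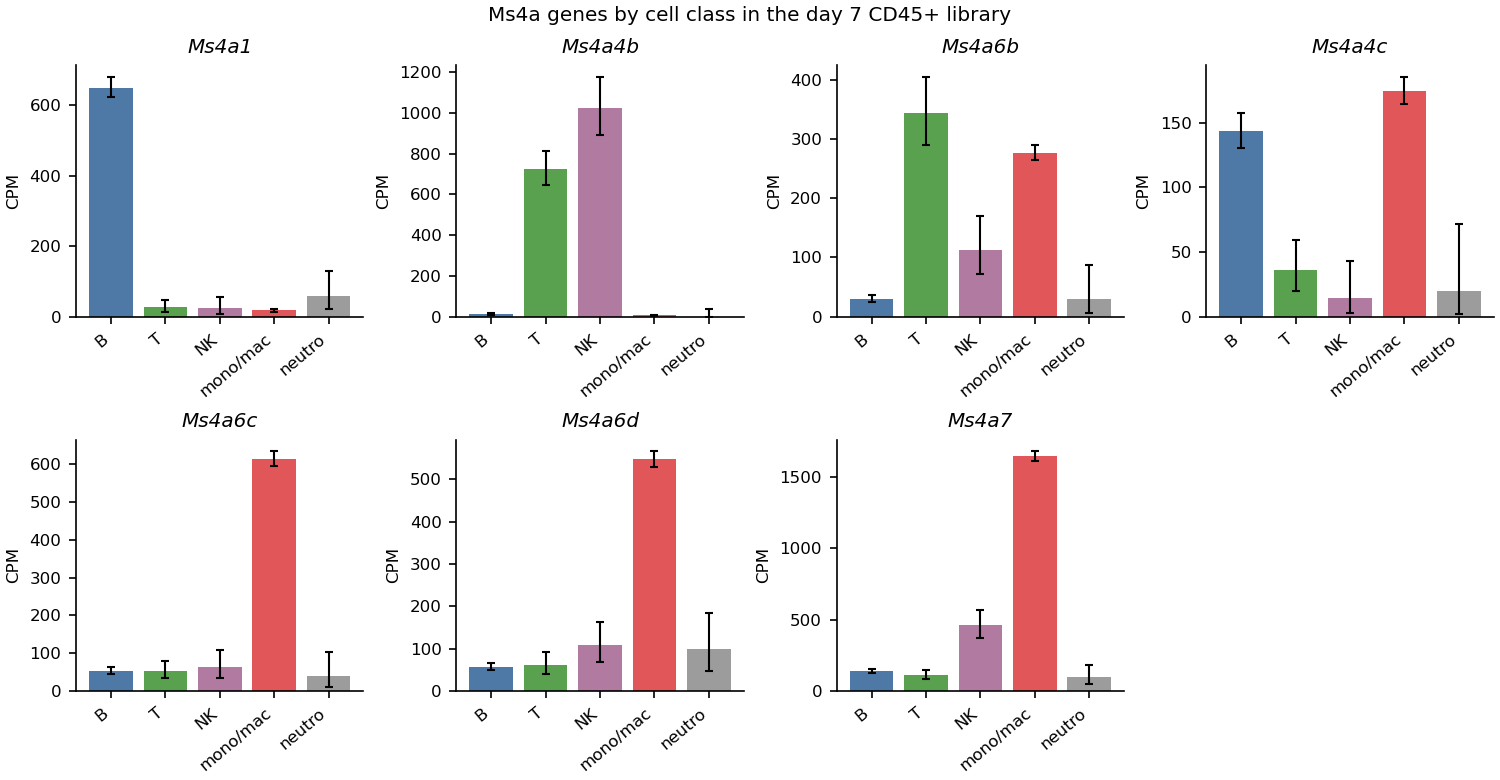
Levels in CPM of 7 Ms4a genes by cell class in the day 7 CD45+ library, with exact Poisson 95% intervals. Ms4a1 is highest in B cells (650 CPM), Ms4a4b in NK and T cells (1025 and 725 CPM), Ms4a6b in T cells and monocytes/macrophages, and Ms4a6c, Ms4a6d and Ms4a7 in monocytes/macrophages.

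The days shared by both heart experiments were fitted together over all genes. UMIs were summed over monocytes/macrophages of days 1, 3 and 5 in each experiment, giving 2 sums a day, and edgeR's quasi-likelihood test was run with day and experiment as terms on 10568 genes. Of these, 9.88% were called from day 1 to day 5 at a Benjamini-Hochberg adjusted p under 0.05, 4.22% higher and 5.66% lower on day 5. From day 1 to day 3 0.766% were called, 0.17% higher and 0.596% lower. From day 3 to day 5 no gene was called by edgeR, 795 had an unadjusted p under 0.05, and DESeq2 called 97. Of the 7 members 6 were tested, since Ms4a1 had too few UMIs. From day 1 to day 5, Ms4a7 was called higher and Ms4a4b lower. From day 1 to day 3 no member was called by edgeR, though 3 had an unadjusted p under 0.05 (Ms4a7, Ms4a6b and Ms4a4b), and DESeq2 called 1. From day 3 to day 5 no member was called by edgeR or DESeq2, and 1, Ms4a7, had an unadjusted p under 0.05. The choice of members used the same days, so these counts are printed beside the shares of all genes called. Nothing is read from the counts, nor from the members' p-values and fits with a sum left out that follow.

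Ms4a7 was higher on day 5 than on day 1 by 4.95 on the log2 scale (SE 0.68, edgeR adjusted p = 0.0159), with 6.56 within the CD45+ libraries and 3.84 within the heart pool. From day 1 to day 3 the value was 3.42 (SE 0.64, adjusted p = 0.0865), and from day 3 to day 5 1.53 (SE 0.57, adjusted p = 0.638), with the later day higher in both experiments. The call from day 1 to day 5 held with each of the 6 sums left out in turn (4.03 to 6.47). From day 1 to day 3 Ms4a7 was called with each sum left out except day 3 of the heart pool (2.55 to 5.00), and from day 3 to day 5 it was called without either day 1 sum (1.48 and 1.47). Ms4a4b fell by 1.44 on the log2 scale from day 1 to day 5 (SE 0.33, adjusted p = 0.0492), by 0.86 within the CD45+ libraries and by 1.97 within the heart pool, at levels under 20 CPM. That call was lost on scaling by total UMI counts (edgeR adjusted p = 0.0889), with the 2 days alone (0.104), and without any of the day 3 and day 5 sums (edgeR adjusted p from 0.0579 to 0.290). With cells classed by their own markers in place of clusters it was -0.44 (edgeR adjusted p = 0.593).

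The other tested members did not pass the threshold in this fit. Ms4a6b was 1.13 (SE 0.45) on day 3 and 1.23 (SE 0.45) on day 5 above day 1, with edgeR adjusted p = 0.274 and 0.125. The day 5 value of Ms4a6b passed with DESeq2 (1.25, adjusted p = 0.0483) and with edgeR without a filter on low counts (1.33, adjusted p = 0.0279). Within the CD45+ libraries the day 5 value was 2.16 and within the heart pool 0.53, and the day 5 value was called without day 1 of either experiment (0.55 and 2.23) or day 3 of the CD45+ libraries (1.35). Ms4a6d was 0.37 (SE 0.17, edgeR adjusted p = 0.208; called at 0.55 without day 1 of the heart pool) and Ms4a6c 0.01 (SE 0.16, adjusted p = 0.986) on day 5 against day 1. Ms4a4c was -0.28 (SE 0.66, adjusted p = 0.797) on day 5 and 0.35 (SE 0.65, adjusted p = 0.802) on day 3 against day 1. Behind those values lie 1.29 in the CD45+ libraries and -1.53 in the heart pool on day 5, and 1.73 and -0.57 on day 3. Without day 1 of the CD45+ libraries the day 5 value was -1.33 and without day 1 of the heart pool 1.18, both called by edgeR (adjusted p = 5.0e-04 and 5.9e-04). With 2 sums a day the fit has 2 residual degrees of freedom. Scaling by total UMI counts in place of TMM moved the median of all genes from -0.01 to 0.23 for day 5 against day 1.

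Lists of state genes fitted in the same way give the setting of those values. For day 5 against day 1, 4.22% of all genes tested were called higher and 5.66% lower. The lists were chosen with earlier results of these data known, and marker lists of this kind also named the classes and states. Counts by list are therefore a description and no separate evidence for the changes of the members. From day 1 to day 5, 7 of 12 macrophage genes were higher and none lower, with a median log2 change of 1.37 against -0.01 over all genes. Apoe, a lipid carrier, was higher by 3.44 (SE 0.43, edgeR adjusted p = 0.0130) and the complement gene C1qa by 2.65 (SE 0.35, adjusted p = 0.0141). Of 8 lipid-handling genes 5 were higher and 1 lower, median 2.19, among them Gpnmb at 4.49 (SE 0.42, adjusted p = 0.00731). Of 8 Ly6c2+ monocyte genes 4 were lower and none higher, median -2.04, with Vcan at -3.69 (SE 0.30, adjusted p = 0.00601). Of 8 early inflammatory genes 6 were lower and none higher, median -2.04, and of 10 interferon genes 1 was lower, Oasl1, and none higher. Of 7 MHC class II genes 1 was higher, H2-Eb1, and of 8 resident genes 2 were higher and Cd163 lower. The call of Oasl1 was lost with cells classed by their own markers (-0.54, edgeR adjusted p = 0.310), and that of H2-Eb1 at Leiden resolution 1.0 (1.41, adjusted p = 0.0925) and with at most 5% mitochondrial UMIs (1.31, adjusted p = 0.131).

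The surface antibodies of the heart pool gave a readout that neither the clusters nor the choice of members had used. Monocytes/macrophages of each day were ordered by an antibody's UMIs and the lowest 25% of cells compared with the highest 25% (the low and the high range), 56 cells each on day 1, 266 on day 3 and 325 on day 5. Ly6C is a surface protein of inflammatory monocytes that is lost as they mature, and CD64 is the Fc receptor used to tell macrophages apart. Ms4a4c was higher, and Ms4a7 lower, in the Ly6C-high range on each of the 3 days. There is 1 sample a day, so intervals cover counting error and no test over samples was made.

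Ms4a4c in the low and high Ly6C range stood at 70.9 and 331 CPM on day 1, 49.0 and 440 CPM on day 3, and 26.4 and 243 CPM on day 5. Ms4a7 stood at 174 and 38.5 CPM, 656 and 271 CPM, and 1374 and 892 CPM on the same days. Ms4a6c (389 and 603, 482 and 929, 498 and 759 CPM) and Ms4a6b (122 and 224, 187 and 366, 264 and 353 CPM) went with Ms4a4c on all 3 days. Ms4a6d was higher in the Ly6C-high range on days 1 and 3 (358 and 600, 534 and 619 CPM), while on day 5 its intervals overlapped (656 and 666 CPM). Of these 15 pairs of ranges, 11 were apart with the higher level in the Ly6C-high cells and 3, all of Ms4a7, with the higher level in the Ly6C-low cells. The ranges differed in depth in no single direction, with median UMIs of 18352 and 27101 on day 1, 30009 and 24642 on day 3, and 25418 and 22770 on day 5.

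**Figure D4:**
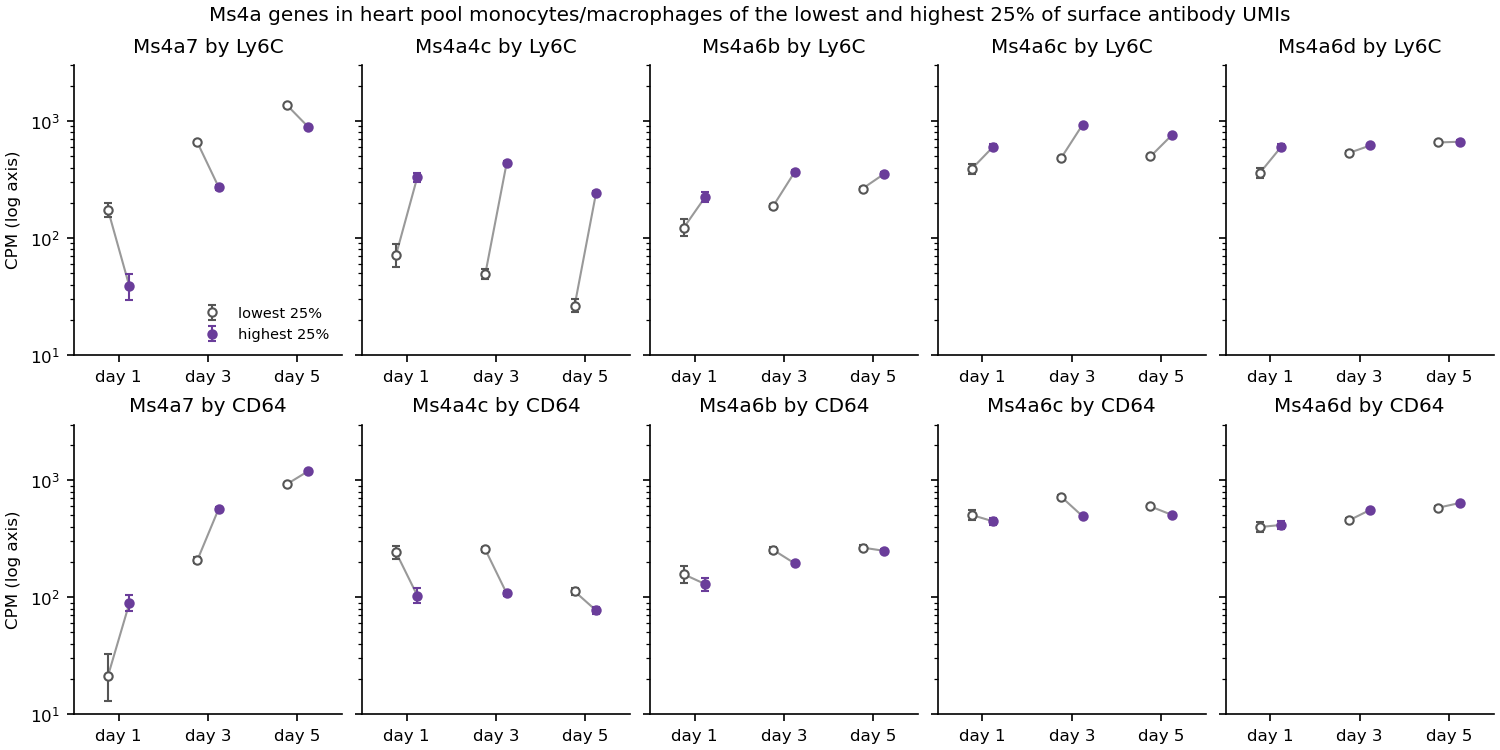
Levels in CPM (log axis) of 5 Ms4a genes in heart pool monocytes/macrophages of the low (open) and high (filled) range of Ly6C or CD64 antibody UMIs, by day, with exact Poisson 95% intervals. Ms4a4c is higher and Ms4a7 lower in the Ly6C-high range on each day, and the order is the reverse for CD64.

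CD64 and Cx3cr1, a chemokine receptor of mature monocytes and macrophages, ordered the genes the other way. Ms4a7 in the low and high CD64 range stood at 21.2 and 89.3 CPM on day 1, 208 and 574 CPM on day 3, and 925 and 1197 CPM on day 5. By Cx3cr1 it stood at 30.4 and 113 CPM, 266 and 582 CPM, and 833 and 1337 CPM. Ms4a4c was lower in the high range throughout, at 243 and 103, 256 and 108, and 112 and 77.1 CPM by CD64, and at 321 and 95.7, 250 and 87.3, and 116 and 51.4 CPM by Cx3cr1. Cells high for these antibodies had more UMIs of RNA, for example a median of 46706 against 18261 for CD64 on day 3, and the part of cell size or depth in this was not tested. Ms4a4c was also lower in the high range of Ly6G, a neutrophil antigen, on all 3 days (356 and 137, 226 and 122, 97.4 and 75.7 CPM). Ms4a7 by Ly6G was lower in the high range on days 3 and 5 (521 and 432, 1223 and 1078 CPM), the opposite of its order by CD64. By CCR2 antibody neither gene had a common order, with Ms4a4c at 209 and 176, 162 and 167, and 74.8 and 113 CPM. By the remaining antibodies Ms4a7 had no order common to the 3 days. By CD11c, MSR1, F4/80 and IA/IE (the MHC class II molecules) Ms4a4c was lower in the high range on all 3 days, for example 444 and 66.5 CPM by CD11c and 303 and 95.1 CPM by F4/80 on day 1. Ms4a7 by CD11c had overlapping intervals on all 3 days (72.9 and 98.0, 453 and 468, 1156 and 1120 CPM), and by MSR1 and IA/IE its order turned between days 3 and 5. By F4/80 Ms4a7 stood at 84.9 and 75.4 CPM on day 1, with overlapping intervals, and was higher in the high range on days 3 and 5 (473 and 517, 1019 and 1148 CPM). By TIM4, a receptor of resident macrophages, Ms4a4c was apart on day 1 only (226 and 133 CPM) and Ms4a7 on day 5 only (1171 and 1053 CPM), both lower in the high range.

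Ms4a4c was higher in the high than in the low range of cells by UMIs of interferon genes. Monocytes/macrophages of each library were ordered by the summed share of 10 interferon genes, none of them an Ms4a gene. From the low to the high range, Ms4a4c went from 16.7 to 58.0 CPM at steady state, from 98.1 to 237 CPM on day 1, from 194 to 1163 CPM on day 3, from 111 to 1012 CPM on day 5 and from 53.2 to 436 CPM on day 7 of the CD45+ libraries. In the heart pool it went from 53.0 to 596 CPM on day 1, from 21.5 to 474 CPM on day 3 and from 11.8 to 271 CPM on day 5. The intervals were apart in all 8, with ratios from 2.41 to 23.0. Cells of the high range had the lower median depth in 7 of the 8, the steady state library being the exception. Clusters at resolution 1.0 did not all follow this order. On day 1, cells of the early inflammatory cluster held 34.0 CPM in the part with 10 interferon markers (30 cells, 6 UMIs). The part with 1 such marker held 145 CPM (203 cells). The Ly6c2+ cluster of the CD45+ libraries went the other way on days 3 and 5. Its part with 10 interferon markers held 2128 and 2622 CPM (26 and 21 cells), against 750 and 1047 CPM in its largest part.

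Between the ranges Ms4a7 showed no such order, being lower in the high range in 3 of the 8 and with overlapping intervals in the other 5. It went from 433 to 418 CPM at steady state, from 7.27 to 24.7 CPM on day 1 (4 and 12 UMIs), from 591 to 526 CPM on day 3, from 1950 to 1703 CPM on day 5 and from 1786 to 1290 CPM on day 7, and in the heart pool from 84.1 to 96.7, from 532 to 485 and from 1103 to 1141 CPM. Ms4a6b (for example 137 and 397 CPM on day 3 of the heart pool) and Ms4a6c (393 and 888 CPM) were higher in the interferon-high range, with intervals apart, in 7 and 8 of 8 libraries. Ms4a6d was so in 7 of 8, by 1.17 to 2.48 times in those 7. Even Ms4a4b, at its low level, stood at 0.706 and 46.1 CPM on day 1 of the heart pool, 1 and 50 UMIs.

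**Figure D5:**
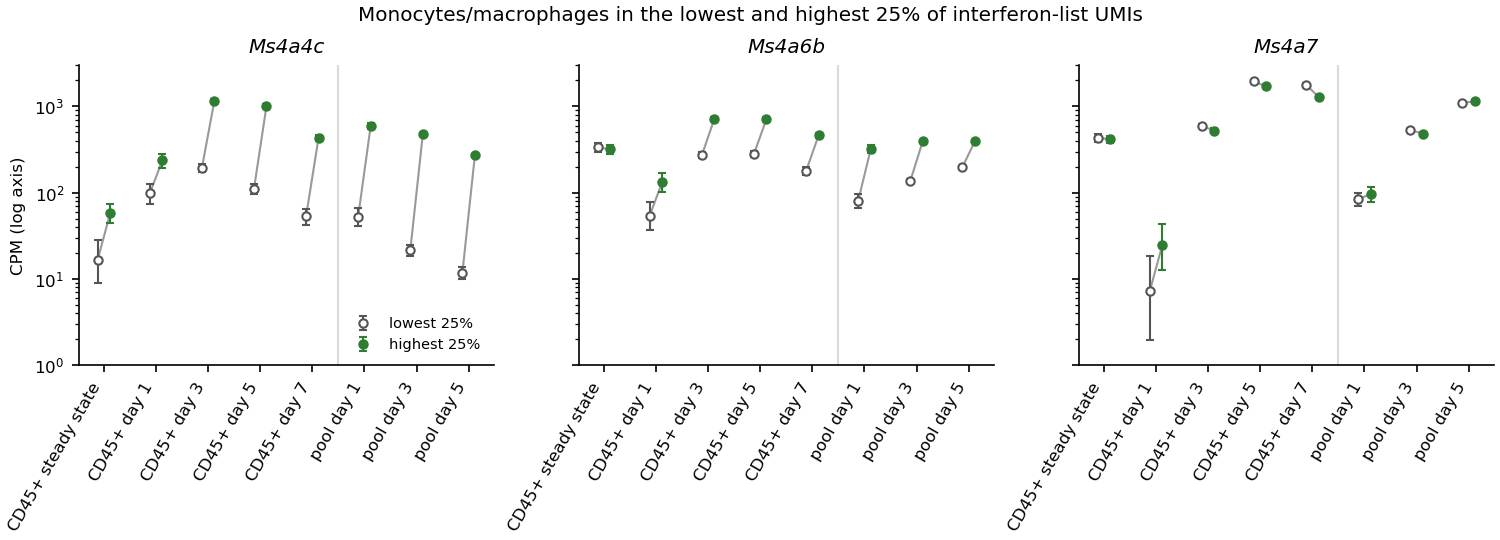
Levels in CPM (log axis) of Ms4a4c, Ms4a6b and Ms4a7 in monocytes/macrophages of the low (open) and high (filled) range of interferon-list UMIs in 8 libraries or hashtags, with exact Poisson 95% intervals. Ms4a4c is higher in the high range in all 8, by 2.41 to 23.0 times, and the intervals of Ms4a7 overlap in 5.

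Cells with an Ms4a7 UMI less often had one of Ms4a4c in 4 of 7 groups, and in 1 of 7 at a lower depth. After thinning to 2000 UMIs, an Ms4a4c UMI was found in 42.5% of cells with and 54.3% of cells without an Ms4a7 UMI on day 3 of the CD45+ libraries, 32.2% and 59.7% on day 5, and 16.3% and 30.7% on day 7. In the heart pool the shares were 17.4% and 25.8% on day 3 and 12.0% and 16.3% on day 5. Exact binomial intervals were apart for the 3 CD45+ days and for day 3 of the heart pool. At steady state (3.66% and 5.22%) and on day 1 of the heart pool (24.0% and 27.8%, 25 and 198 cells) they overlapped. After thinning to 1000 UMIs the intervals were apart on day 5 of the CD45+ libraries alone (19.6% and 35.6%), and on day 3 of those libraries the shares were 33.9% and 32.7%, in the other order. Of the day 1 CD45+ cells under 10 had an Ms4a7 UMI, so no share was taken.

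The genes whose levels were most like each member's were ranked over 35 sums of a class in a library or hashtag by Pearson's correlation of log2(CPM + 10) among 4831 genes. The sums share libraries and differ in class, so the values describe and carry no p. For Ms4a7 these were Pld3 (r = 0.96), Uap1l1 and Fcrls (both 0.94). For Ms4a4c they were Trappc1 (0.94), Hpse and Fam96a (both 0.93), for Ms4a6b Npc2 and Eef1akmt1 (both 0.96) and Cd48 (0.95), and for Ms4a6c Mcub (0.97), Pid1 and Emp3 (both 0.95). For Ms4a6d they were Fkbp2 (0.97), Ak6 and Dnajb11 (both 0.96). For Ms4a1 they were the B cell genes Ebf1 (0.98), Cd79a (0.96) and Cd79b (0.90), with a Spearman's rho of 0.47, 0.55 and 0.50. The only B cell sum was that of day 7, so these r values rest on it. These genes are also among the markers that named the B cell class. For Ms4a4b they were Bcl2 (0.86), AW112010 and H2-T22 (both 0.80). Among the members, Ms4a4c and Ms4a6c were most alike (0.95), then Ms4a6b and Ms4a6c (0.93). The promoter pair Ms4a4c and Ms4a4b had r = 0.38 with a Spearman's rho of 0.76, and Ms4a7 and Ms4a4c r = 0.34 with a rho of 0.35.

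Of the 12 other Ms4a genes and the related Tmem176a and Tmem176b, 5 reached 20 CPM in a sum of 30 or more cells. The other 9 reached at most 6.85 CPM. Ms4a8a was highest on day 1, at 185 CPM in the CD45+ libraries and 52.6 CPM in the heart pool, against 6.47 CPM at steady state. By day 3 and day 5 it stood at 55.8 and 25.2 CPM in the first and 22.6 and 13.4 CPM in the second. It was called lower on day 5 than on day 1, at -2.67 (SE 0.28, edgeR adjusted p = 0.00845). Ms4a14, which lies between Ms4a5 and Ms4a7, was called higher at 3.73 (SE 0.55, adjusted p = 0.0183), from 0 and 2.42 CPM on day 1 to 11.2 and 27.2 CPM on day 5. Its direction over these days was that of Ms4a7. Ms4a4a, beside Ms4a4c, reached 25.7 CPM on day 1 of the CD45+ libraries and was not called (-1.57, SE 0.47, adjusted p = 0.0866). Tmem176b, on chromosome 6, stood at 1092 CPM in the steady state heart and 142, 108, 285 and 421 CPM on days 1, 3, 5 and 7, and was called higher on day 5 than on day 1 (0.81, SE 0.17, adjusted p = 0.0407). The call of Tmem176b was lost without any of the day 3 and day 5 sums (edgeR adjusted p from 0.0833 to 0.256), with the 2 days alone (0.105), at Leiden resolution 1.0 (0.0684) and with cells classed by their own markers (0.394).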

How the data were processed

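Single cells were captured with 10x Genomics 3′ kits (chemistry v2 for the CD45+ libraries and v3 for the heart pool, per the labels). The authors deposited raw UMI counts, with a gene, a barcode and a whole-number count in each entry. Cell Ranger 3.0.2 made the 2 pools per the file headers, and the builds GRCm38 and mm10 are named in the submitters' processing notes. The step that called barcodes as cells is not given in the sources used here. The pools' matrices also hold UMI counts of antibodies and hashtags. No column of another sample was found (0).

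Cells needed 200 or more detected genes and no more than 10% of UMIs from mitochondrial genes. Hashtags were called by a 2-part Gaussian mixture, and barcodes with 1 hashtag were used. In the heart pool 289 barcodes had several and 283 none, and in the blood and heart pool 1430 and 163. Scrublet removed 2 to 6 barcodes per CD45+ library. Doublets of 1 hashtag stay in the pools. Each experiment was clustered in scanpy 1.11.5 (10000 UMIs per cell, 2000 variable genes, 30 components, 15 neighbours, Leiden resolution 0.5) without Ms4a genes, and a cluster was named from marker lists when at least 3 markers were at least 1.5 times higher in at least 20% of its cells. States were assigned by such lists too. Shares were taken after thinning to 1500 UMIs per cell, leaving out shallower cells (at most 34 in a group).

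Sums of days 1, 3 and 5 were fitted in edgeR 4.0.16 (limma 3.58.1, R 4.3.3) by filterByExpr, TMM and glmQLFTest, two-sided, with day and experiment as terms and Benjamini-Hochberg adjustment over all genes at 0.05. Each SE printed was taken back from that test, as the size of the log2 change divided by the square root of its F statistic. On simulated sums 59.5%, 64.0% and 76.0% of 200 genes changed by 2 (log2) were recovered for day 3 against 1, 5 against 1 and 5 against 3. Of the genes called there, 4.03%, 0.775% and 5.59% were false. The simulated sums had a set spread, not the fitted one (biological CV 19.7%), and the same day changes in both experiments. The shares recovered are thus not the power of the fit on the real sums. Steady state and day 7 have 1 library each and carry no test. Mice of a day were pooled, and the 2 experiments, which differ in sort and chemistry, are the only replicates of a day. The experiment is the block of that fit, so p-values weigh day changes against how far those changes differ between the experiments. That spread has 2 residual degrees of freedom and is moderated over all genes (3.98 prior degrees of freedom). The spread between mice is not measured. Alternatives were total-count scaling, DESeq2 1.42.0, no filter on low counts, no experiment term, the 2 days compared alone, each sum left out, cells classed by their own markers, Ms4a genes kept, Leiden resolution 1.0 and at most 5% mitochondrial UMIs.

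The members and the lists of context genes were chosen with earlier results of these data known, and in that earlier work Ms4a7 had served as a marker for naming. Named beside the members were the other Ms4a genes and Tmem176a and Tmem176b at 20 CPM or more in a sum of at least 30 cells, the 3 genes most like each member, and up to 3 called genes per context list by size of change. Antibodies of the blood and heart pool were used after the data were seen. Positions are from GENCODE (GRCm38) and promoters from RefSeq (GRCm38.p6).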

Additional observations from a re-analysis of the deposited data

Results flagged for a closer look

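Day effects of Ms4a4c and Ms4a6c had opposite signs in the 2 heart experiments, each of which is 1 sample a day, and the difference was not tested. Ms4a4c on day 3 against day 1 was 1.73 on the log2 scale in the CD45+ libraries (counting interval 1.57 to 1.90) and -0.57 in the heart pool (-0.66 to -0.48). On day 5 against day 1 it was 1.29 (1.12 to 1.46) and -1.53 (-1.62 to -1.43). Ms4a6c on day 5 against day 1 was 0.13 (0.05 to 0.21) and -0.12 (-0.17 to -0.06). The 2 day 1 samples differ in makeup, with 95.1% of monocytes/macrophages of the CD45+ library in the early inflammatory cluster and 71.0% of those of the heart pool in the Ly6c2+ cluster. The experiments also differ in sort and chemistry, and the part of each in the difference was not tested. Inside the Ly6c2+ cluster of the heart pool Ms4a4c stood at 246, 331 and 269 CPM on days 1, 3 and 5. That cluster was mixed, and in its largest part at Leiden resolution 1.0 Ms4a4c stood at 186, 384 and 390 CPM.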

How the results depend on the processing

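Numbers of genes called moved with the settings. For day 3 against day 1 (81 genes) they were 4 with total-count scaling, 475 with DESeq2, 543 without a filter, 19 with cells classed by their own markers and 2 at Leiden resolution 1.0, and 11 to 2413 with 1 sum left out. For day 5 against day 1 (1044 genes) they were 1704 without a filter and 470 with the 2 days alone, and 353 to 3329 with 1 sum left out. For day 5 against day 3 (0 genes by edgeR, 795 at an unadjusted p under 0.05) they were 97 with DESeq2, 80 without a filter, 773 with the 2 days alone and 2 with Ms4a genes kept, and 1 to 928 with 1 sum left out. The highest count of each range came without day 1 of the heart pool. The lowest came without day 3 of the heart pool, day 5 of the CD45+ libraries and day 3 of the CD45+ libraries. Without the replicate block (no experiment term) 0 genes and 0 members were called in all 3 comparisons, Ms4a7 on day 5 against day 1 was 5.02 (edgeR adjusted p = 0.160) and Ms4a4c was 0.41.

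Of the members, 1 was called on day 3 against day 1 (0 by edgeR in the report) with DESeq2, without a filter, with the 2 days alone or with own markers, and 0 to 3 with 1 sum left out. On day 5 against day 1 (2) it was 3 with DESeq2 or no filter (Ms4a6b added), 1 with total counts, the 2 days alone or own markers, and 1 to 5 with 1 sum left out. On day 5 against day 3 (0) it was 2 with the 2 days alone, and 0 to 2 with 1 sum left out. Signs turned for values near 0. Ms4a6c on day 5 against day 1 was -0.014 with Ms4a genes kept and -0.067 at resolution 1.0. With 1 sum left out, Ms4a4c ran from -0.63 to 1.88 (day 3 against 1), -1.33 to 1.18 (day 5 against 1) and -1.57 to 0.017 (day 5 against 3), and Ms4a6c from -0.046 to 0.14 (day 5 against 1). For day 5 against day 3, Ms4a6b ran from -0.33 to 0.66, Ms4a6d from -0.088 to 0.29 and Ms4a4b from -0.61 to 0.26. For antibodies, the log2 ratio of highest over lowest range turned for Ms4a7 by MSR1 on day 5 (0.13 by share of antibody UMIs), by IA/IE on day 5 (0.00187 between lower and upper 50%, 0.10 by share) and by CCR2 (0.64 by share on day 3, 0.00444 between lower and upper 50% and 0.24 by share on day 5), and for Ms4a4c by CCR2 on day 5 (-0.012 between lower and upper 50%, -0.68 by share). The 11 of 15 Ly6C pairs were 11 between lower and upper 50% and 12 by share. Of the heart pool log2 ratios recomputed in these 2 ways, 161 left their counting interval, the 8 above turned and 71 stayed within it. Co-detection intervals were apart in 1 group, not 4, at 1000 UMIs, where the one left was day 5 of the CD45+ libraries. Of 504 levels recomputed, 112 left their counting interval, 69 of them with own markers. The causes were not tested. Depth limits Ms4a7 and Ms4a1 on day 1 and all lymphocyte groups under 30 cells.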

Other observations

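In the blood and heart pool, 7 hashtags are not mapped to conditions by the labels used here, so each is given alone. In monocytes/macrophages under hashtags 1 to 7 Ms4a7 stood at 13.5, 18.6, 10.1, 12.3, 14.7, 23.2 and 109 CPM. Ms4a6d stood at 254, 174, 208, 195, 258, 504 and 628 CPM in the same order, and hashtags 6 and 7 were the highest for both. Ms4a4c (910, 449, 619, 433, 548, 573 and 562 CPM), Ms4a6b (704, 420, 568, 420, 541, 449 and 538 CPM), Ms4a6c (1956, 1287, 1550, 1354, 1445, 1384 and 1354 CPM) and Ms4a4b (82.6, 41.2, 53.7, 42.8, 52.7, 51.2 and 44.4 CPM) were highest under hashtag 1.

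Ms4a6d differed between hashtags inside a cluster. In the Ly6c2+ cluster of that pool it lay between 231 and 410 CPM over the 7 hashtags. In the cluster with MHC class II genes it stood at 656 and 750 CPM under hashtags 6 and 7 (152 and 201 cells) and between 156 and 274 CPM under the other 5 (28 to 71 cells). Ms4a7 in that cluster stood at 156 CPM under hashtag 7 and between 11.5 and 40.0 CPM under the others. The cluster was mixed, with 7 MHC class II, 4 Ly6c2+, 3 lipid-handling and 3 early inflammatory markers. At resolution 1.0 the pool held a cluster of 346 cells named dendritic and another of 299 monocytes/macrophages, with 7 and 5 MHC class II markers. Whether the makeup of the cluster differed between hashtags, and its part in these values, was not tested.

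By the Ly6C antibody of this pool, Ms4a4c, Ms4a6b, Ms4a6c, Ms4a6d and Ms4a4b were higher in the highest 25% than in the lowest 25% of cells under 7 of 7 hashtags, with counting intervals apart in each. Ms4a4c had a median over the hashtags of 168 CPM in the low range (129 to 610) and 652 CPM in the highest (607 to 1015). Ms4a7 was lower in the Ly6C-high range under hashtag 7 (170 and 42.9 CPM), as on the 3 days of the heart pool. Under the other 6 the order was the opposite, at lower levels, 1.42 to 15.2 CPM in the low and 10.4 to 30.3 CPM in the high range, with intervals apart in 3. By CD62L, the homing receptor L-selectin, Ms4a4c, Ms4a6b, Ms4a6c and Ms4a4b were likewise higher in the high range under 7 of 7 hashtags.

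T cells of the blood and heart pool held Ms4a4b at 1660 CPM under hashtag 1 and 1571 CPM under hashtag 2, with Ms4a6b at 938 and 717 CPM.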
